A study of Mus musculus with 36 samples.

Results

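The genes described here encode the enzymes that build cholesterol from acetyl-CoA, the proteins that control the transcription factor SREBP2, and 3 further genes it is known to switch on. They were taken as a named list of 27 genes, looked up by Ensembl identifier and GENCODE symbol in a table of 53715 gene identifiers. Of the 27, 26 passed the low-count filter, among 14068 genes in all that passed it, and the remaining gene, Mvd, was listed at 0 in every library. The libraries came from livers of male C57BL/6 mice aged 10 weeks that had eaten 1 of 3 diets since 4 weeks of age. The Control mice ate the purified AIN93G diet, the Red mice ate AIN93G with 10% red tomato powder, and the Tangerine mice ate AIN93G with 10% tangerine tomato powder. There were 12 libraries per diet, each from a separately numbered mouse, and no genetic change or drug was given to any group. The study asked what eating tomato changes in liver transcripts, and the tangerine fruit, as background, carries lycopene mostly in cis forms and the red fruit mostly in the trans form.

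Cholesterol synthesis starts in the cytosol with the joining of acetyl-CoA units, passes through mevalonate and isoprenoid diphosphates to squalene, and ends with the closing and trimming of the sterol ring in the endoplasmic reticulum. SREBP2, the product of Srebf2, is held in that membrane by SCAP and the INSIG proteins while sterols are plentiful. When membrane sterol falls, SCAP carries SREBP2 to the Golgi, where it is cut, and the freed part enters the nucleus and raises transcription of most genes of the pathway together. Its sites in promoters are usually found beside CCAAT boxes, bound by NF-Y, and GC boxes, bound by Sp1. Liver is a main site of this synthesis, and the pathway's transcripts are known to follow feeding, dietary sterol and time of day.

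Promoter sequences are shown for 4 genes: Hmgcs1, an early enzyme, Nsdhl, a late enzyme, Tmem97, the member that passed the test between the tomato diets, and Insig2, the member that tracked a clock gene most closely. The stretches are RefSeq promoter windows on build GRCm38.p6, written 5′ to 3′ on the gene's strand, from 250 bases before the transcription start. Each ends at the start, or earlier where a GENCODE M21 exon of the gene begins. Capitals mark any match, on either strand, to the sterol element core TCACNCCAC, the CCAAT box CCAAT, the GC box GGGCGG, the E-box CACGTG, the ROR element core TAGGTCA or the D-box TTATGTAA. The Hmgcs1 stretch is chr13:119690101-119690350 on the plus strand.
Hmgcs1: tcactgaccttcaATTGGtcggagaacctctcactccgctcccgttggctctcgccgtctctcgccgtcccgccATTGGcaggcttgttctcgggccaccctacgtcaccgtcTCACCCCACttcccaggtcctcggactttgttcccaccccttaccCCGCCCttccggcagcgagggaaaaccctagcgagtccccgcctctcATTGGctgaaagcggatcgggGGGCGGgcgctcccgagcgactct
The Nsdhl stretch is chrX:72918271-72918520 on the plus strand.
Nsdhl: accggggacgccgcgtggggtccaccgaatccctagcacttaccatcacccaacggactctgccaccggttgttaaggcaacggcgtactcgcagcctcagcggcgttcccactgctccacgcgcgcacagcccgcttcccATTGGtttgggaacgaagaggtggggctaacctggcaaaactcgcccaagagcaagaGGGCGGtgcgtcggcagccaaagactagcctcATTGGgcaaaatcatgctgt
The Tmem97 stretch is chr11:78550778-78550985 on the minus strand.
Tmem97: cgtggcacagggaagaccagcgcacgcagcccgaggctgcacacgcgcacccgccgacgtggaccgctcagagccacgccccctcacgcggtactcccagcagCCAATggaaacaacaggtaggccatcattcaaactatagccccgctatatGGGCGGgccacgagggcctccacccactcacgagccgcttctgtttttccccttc
The Insig2 stretch is chr1:121332590-121332839 on the minus strand.
Insig2: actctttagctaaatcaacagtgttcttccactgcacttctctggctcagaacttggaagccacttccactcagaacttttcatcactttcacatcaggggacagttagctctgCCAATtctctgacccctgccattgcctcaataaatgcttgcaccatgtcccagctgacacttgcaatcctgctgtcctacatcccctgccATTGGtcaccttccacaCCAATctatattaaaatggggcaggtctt

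RefSeq windows were matched for 23 of the 27 genes, with 29 windows among them, and Fdps, Fdft1, Sqle and Stard4 had no entry. Over the full 250 bases before each start, a CCAAT box lay in 20 of 29 windows (69%), against 33.8% of all 32851 mouse windows of the same length. A GC box lay in 22 of 29 windows (75.9%), against 32.7% of all windows. Counted by gene, 20 of 23 had a CCAAT box and 20 of 23 a GC box, and 17 had a window that held both. Acat2, Scap and Aacs had no CCAAT box there, and Pmvk, Ggps1 and Aacs had no GC box. The sterol element core was found in 1 gene, Hmgcs1, at 137 bases before the start, and in 1.05% of all windows. An E-box, the letters that CLOCK and its partner can bind, lay in windows of Hsd17b7, Sc5d, Dhcr7, Insig1 and Scap, 17.2% of member windows against 6.02% of all. The ROR element core occurred in 1 window, of Dhcr7 (2.23% of all windows hold it), and the D-box in 0 of 29 (0.819% of all windows). No motif pair overlapped within a member window. These counts describe letters in a window, and other motif spellings were not searched.

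Deposited counts summed to between 21290169 and 33810573 per library, and levels are given here as CPM, counts scaled to a common library size, with TMM factors applied. All 5 hepatocyte markers were present, with Alb at a median of 76310 CPM. No pair of libraries agreed within sampling noise (the smallest chi-square per degree of freedom was 13.7). The libraries Control 137, Red 186 and Tangerine 216 stood apart: Control 137 had the lowest total and, at 0.9722, the lowest median correlation with the other libraries. Red 186 held 5253 counts over 5 T cell markers, where the next Red library held 112, and Tangerine 216 held 291 counts over 8 pancreatic acinar markers, where every other library held at most 8. Kupffer cell markers summed to between 62.8 and 218 CPM of unscaled totals in Control, 137 and 245 in Red, and 91 and 206 in Tangerine. In Tangerine against Red at an adjusted p of 0.05 by edgeR, where 1.71% of all genes were called, 1 of 5 hepatocyte markers was called higher (Cps1) and 1 lower (Fgb), and 3 of 4 tested T cell markers were called lower. The T cell markers summed to a median of 2.72 CPM of unscaled totals in Red and 2.61 in Tangerine. Without Red 186, 0 T cell markers were called, and of the hepatocyte markers Fgb alone was. In tissue of this kind fewer cells of a type and less RNA per cell cannot be told apart.

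The levels of the members spanned a wide range. Per kilobase of exon in Control livers, Sc5d, a desaturase of the sterol ring, was the most abundant at a median of 187.5 CPM per kb (range 131.6 to 248.7), and Insig1, which retains SCAP in the endoplasmic reticulum, followed at 157.6. Ebp, the sterol isomerase, stood at 97.94 CPM per kb, Hmgcs1 at 81.96 and Idi1 at 79.23. The Control ranges of neighbours in this order overlapped, as for Sc5d and Insig1 or Hmgcs1 and Idi1, with the exception of Srebf2 and Lss. At the low end were Lss, the lanosterol synthase that closes the ring, at 4.128 CPM per kb, Lbr, the lamin B receptor with sterol reductase activity, at 2.443 and Ggps1, which makes geranylgeranyl diphosphate for protein prenylation, at 1.565. Fdps, the farnesyl diphosphate synthase, was counted at 2.577 CPM per kb, but with the counts of its processed pseudogenes added, described further on, its median was 79 CPM per kb, so its place in the order is uncertain. The counts of Lss were divided by 10.79 kb of exon, and 68.5% of its exon bases lay inside another gene's span, as described below. The place of Lss in the order is therefore uncertain too. Tm7sf2, which shares its reaction with Lbr, stood at 38.33 CPM per kb. Srebf2 itself was at 8.713 CPM per kb, rank 22 of 26.

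Mvd, the mevalonate diphosphate decarboxylase, spans positions 122433601 to 122443422 of chromosome 8 on the minus strand (GRCm38) and lies wholly inside the annotated span of Gm20388, which runs from 119910841 to 124345722 on the plus strand. Gm20388 held 22561 counts over the 36 libraries, while all 71 other protein-coding genes inside that span were listed at 0 in every library. Across all protein-coding genes, 88.4% of the 1464 whose exon bases lie entirely inside other genes' spans were listed at 0 throughout, against 19.6% of the 14052 with no such overlap. Where those spans were on the opposite strand only, the share was 96.4% of 786. The value of 0 for Mvd is therefore given as listed and not as a level of the transcript. Fdps had 79.6% of its exon bases inside other spans, on its own strand, and Lss had 68.5%, on the opposite strand. Hmgcs1 followed with 46.6%, Fdft1, the squalene synthase, with 18.3%, and the other members had at most 13.2%. The library kit keeps strand, and the counting setting is not given in the sources used here.

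Counts of several members could also fall on processed pseudogenes, which are intronless copies of a transcript elsewhere in the genome. Fdps held 9790 counts over the 36 libraries, and its copy Gm3571 (chromosome 10, 93778660 to 93779719, plus strand) held 237558. Idi1 held 245361 and its copy Gm13502 (chromosome 2, 53696121 to 53696804, minus strand) 59221. Tmem97 held 59343 and its copy Gm5809 (chromosome 16, 22230391 to 22230919, plus strand) 11360. The closeness of these copies is shown by 120 bases of coding sequence from the GENCODE M21 transcripts, with capitals at the differing base. Over the whole coding sequence, a local alignment with gaps of Fdps and Gm3571 had 1047 identical bases in 1059 columns (98.9%), with a longest unbroken identical run of 188 bases. Coding bases 70 to 189 of Fdps differed from Gm3571 at 1 position.
Fdps: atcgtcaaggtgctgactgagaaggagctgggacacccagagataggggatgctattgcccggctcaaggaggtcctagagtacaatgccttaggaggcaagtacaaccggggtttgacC
Gm3571: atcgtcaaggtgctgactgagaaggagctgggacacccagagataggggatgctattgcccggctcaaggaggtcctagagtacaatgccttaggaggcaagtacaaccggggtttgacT
Coding bases 115 to 234 of Tmem97 differed from Gm5809 at 1 position, and over its 528 coding bases the copy was 98.9% identical.
Tmem97: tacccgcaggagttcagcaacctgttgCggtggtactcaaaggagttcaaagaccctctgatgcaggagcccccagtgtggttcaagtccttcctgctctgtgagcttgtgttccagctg
Gm5809: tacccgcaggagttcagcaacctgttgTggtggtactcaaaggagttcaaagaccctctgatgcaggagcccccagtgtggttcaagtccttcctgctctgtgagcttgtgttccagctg
Coding bases 169 to 288 of Idi1 are the same in Gm13502, as were 681 bases in a row.
Idi1: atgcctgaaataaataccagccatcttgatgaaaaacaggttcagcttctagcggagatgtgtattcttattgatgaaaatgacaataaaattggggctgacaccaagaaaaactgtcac

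Acat2, the cytosolic acetyl-CoA acetyltransferase, shared 39.1% of its 50-base words with the neighbouring Acat3, which held 144980 counts against 132001 for Acat2. Which of these genes a read came from cannot be told from the table, so values of Acat2, Fdps, Idi1 and Tmem97 are uncertain in this respect. Values with the pseudogene counts added are given beside the results below where they changed a call.

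On the red tomato diet most genes of the pathway had lower mean levels than on the control diet, and none of them passed the test. Of the 26 tested genes, 23 had a fold change below 0 on the log2 scale and 3 above, with a median of -0.25, beside a median of -0.005 over all 14068 genes, of which 51.5% were lower. At an adjusted p of 0.05 (edgeR quasi-likelihood, Benjamini-Hochberg over all tested genes), 0 of 26 were called, where 0.149% of all genes were. At an unadjusted p of 0.05, 16 of 26 were lower and 0 higher, where 6.63% of all genes were lower. The DESeq2 Wald test called 2 of 26, Acat2 and Idi1, against 1.29% of the 12704 genes to which it gave an adjusted p. Limma-voom with sample weights called 14 of 26, all lower, against 10.7% of all genes. The Red and Control ranges overlapped for all 26 genes, and the share over all tested genes was not computed.

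**Figure D1:**
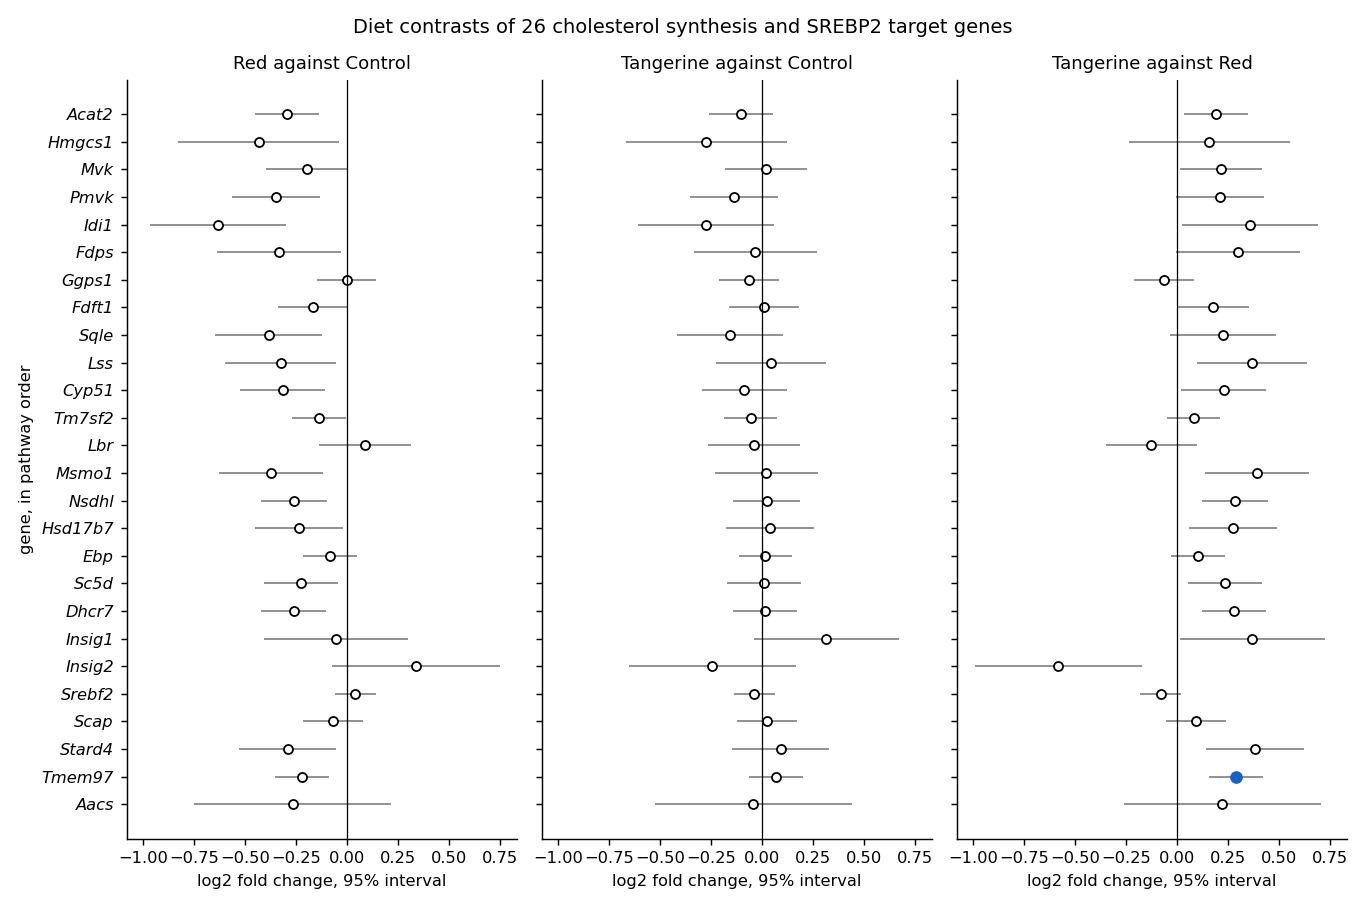
Log2 fold changes with 95% intervals for the 26 tested genes, top to bottom in pathway order, in the 3 diet contrasts (edgeR, 12 libraries per diet). The filled point marks Tmem97 in Tangerine against Red, the only gene past an adjusted p of 0.05. In Red against Control 16 intervals lie below 0, in Tangerine against Control none excludes 0, and in Tangerine against Red 14 lie above 0 and 1, of Insig2, below.

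At the head of the pathway, Acat2 ranged from 117.6 to 187 CPM in Control (median 138.8), from 98.98 to 156.3 in Red (median 119.2) and from 116 to 155.1 in Tangerine (median 137.3). Of the Red livers, 11 of 12 were below the Control median, and 5 lay under every Control liver. Red against Control gave a log2 value of -0.29 ± 0.078 (SE), with an unadjusted p of 0.000556 and an adjusted p of 0.0754. The highest Red value was that of Red 186, and without that library the adjusted p was 0.0347. Hmgcs1, the cytosolic HMG-CoA synthase, ranged from 213.1 to 856.9 CPM in Control (median 376.5), from 197.2 to 465.1 in Red (median 283.3) and from 217.7 to 513.4 in Tangerine (median 323). The Control livers were spread widely, with a standard deviation of 192 CPM around a mean of 400.6. The Red against Control value was -0.43 ± 0.19 (SE; adjusted p = 0.335), and leaving out Control 122, the library at 856.9 CPM, brought it to -0.27.

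Of the mevalonate enzymes, Idi1, the isopentenyl diphosphate isomerase, had the largest difference of all members. It ranged from 164.5 to 538.1 CPM in Control (median 277.7), from 112.5 to 288.5 in Red (median 186.1) and from 192.8 to 318.2 in Tangerine (median 237.9). Of the 12 Control livers 6 were above every Red liver, and 4 Red livers were below every Control liver. Red against Control gave -0.63 ± 0.16 (SE), a fold of 0.645, with an unadjusted p of 0.000465 and an adjusted p of 0.0735. Leaving out Control 189 brought the adjusted p to 0.041, and adding its pseudogenes' counts brought it to 0.0981. Pmvk, the phosphomevalonate kinase, had medians of 89.36 CPM in Control, 72.58 in Red and 87.54 in Tangerine, with a Red against Control value of -0.35 (adjusted p = 0.132). Mvk, the mevalonate kinase, had medians of 28.08, 26.12 and 28.97 CPM in the same order, and its interval of -0.40 to 0.005 for Red against Control included 0.

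**Figure D2:**
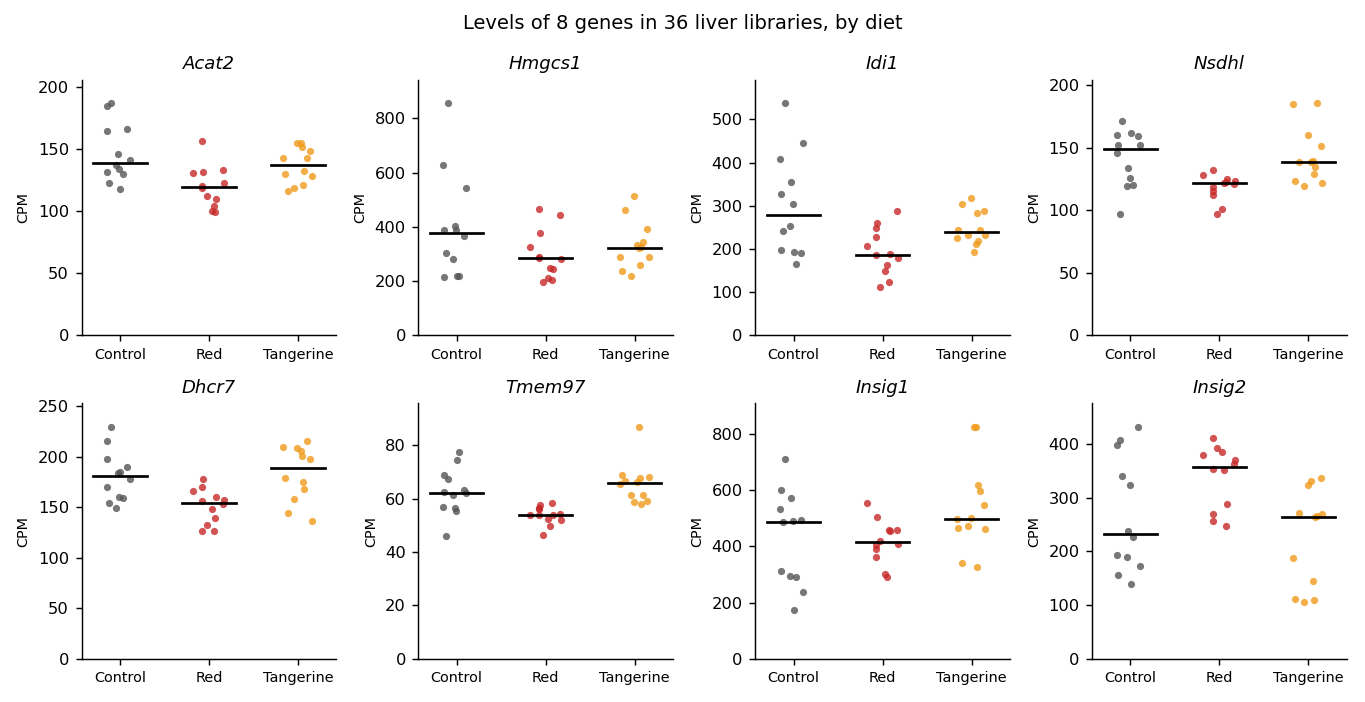
Levels in CPM of 8 genes in the 36 libraries (1 point per mouse, bar at the median, axes from 0), by diet. The Red medians of Acat2, Hmgcs1, Idi1, Nsdhl, Dhcr7 and Tmem97 are the lowest of the 3 diets, while that of Insig2, 357.8 CPM, is the highest.

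Among the prenyl and squalene enzymes, Fdps alone ranged from 4.504 to 17.52 CPM in Control (median 10.84), from 6.727 to 10.66 in Red (median 8.304) and from 5.787 to 15.62 in Tangerine (median 10.95). All 12 Red livers were below the Control median, and the log2 fold change was -0.33 ± 0.15 (SE; adjusted p = 0.335). With the counts of its processed pseudogenes added, a choice made after the data were seen, Fdps ranged from 258.3 to 434.1 CPM in Control (median 332.5), from 182 to 299.2 in Red (median 232.8) and from 207.2 to 416.8 in Tangerine (median 339.7). The summed value was then lower in Red than in Control, -0.49 ± 0.11 (SE; edgeR adjusted p = 0.0304), and higher in Tangerine than in Red, 0.44 ± 0.11 (SE; adjusted p = 0.025). Ggps1, on the branch to prenylated proteins, stood at 7.387, 7.223 and 7.019 CPM in Control, Red and Tangerine, with a Red against Control interval of -0.15 to 0.15 on the log2 scale. Fdft1 had medians of 150.3, 133.7 and 151.4 CPM, and Sqle, the squalene epoxidase, 134.5, 109.9 and 120.9 CPM. The Red against Control values were -0.17 for Fdft1 (adjusted p = 0.397) and -0.38 for Sqle (adjusted p = 0.17).

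**Figure D3:**
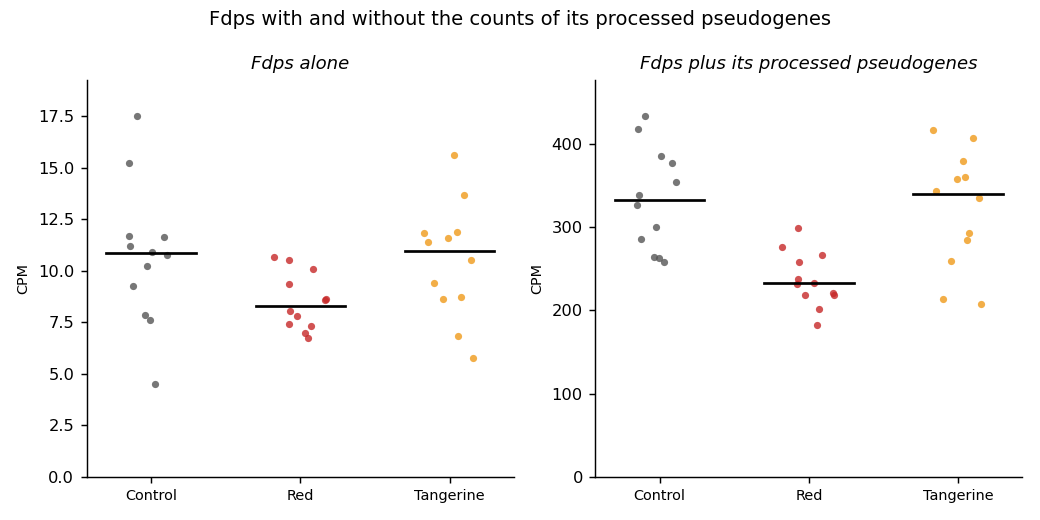
Fdps in CPM by diet in 36 libraries, counted alone (left) and with the counts of its processed pseudogenes added (right), 1 point per mouse and a bar at the median, each axis from 0. The Red median is the lowest in both panels (8.304 and 232.8 CPM).

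The sterol ring enzymes made up the largest group, with 10 tested genes. Of these, 9 had a Red against Control value below 0, where 51.5% of all genes did, with a group median of -0.25. An unadjusted p under 0.05 was found for 8, all lower, where 6.63% of all genes were lower. These 8 are among the 16 of 26 members given above. Msmo1, the methylsterol monooxygenase, had medians of 224.7 CPM in Control, 182.7 in Red and 224.1 in Tangerine. Nsdhl and Hsd17b7, which act with it to remove methyl groups, had Red medians of 121.5 and 88.57 CPM against 148.9 and 102.9 in Control. Of the 12 Control livers 8 had more Nsdhl than any Red liver. Lss had medians of 44.53, 34.39 and 47.28 CPM and Cyp51, the lanosterol demethylase, 233.2, 206.7 and 234.6 CPM, in Control, Red and Tangerine. Dhcr7, the reductase at the end of the pathway, had medians of 180.8, 154.7 and 188.8 CPM. The Red against Control value of Dhcr7 was -0.26 ± 0.078 (SE), with all 12 Red livers under the Control median and an adjusted p of 0.122. Ebp, Lbr and Tm7sf2 had the smallest values of the group, at -0.08, 0.09 and -0.14, and of these the interval of Tm7sf2 excluded 0 (-0.27 to -0.006).

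The tangerine diet against the control diet gave no such pattern. Of 26 genes, 13 had a value below 0 and 13 above, with a median of -0.01 against -0.012 for all genes. At an adjusted p of 0.05 the number called was 0 of 26 by edgeR, where 0.0142% of all genes were called, 0 by DESeq2 (0.0828% of the 7249 genes to which it gave an adjusted p) and 0 by limma-voom (0.0142% of all genes). At an unadjusted p of 0.05 it was 0 of 26 in either direction, against 5.47% of all genes. The member with the smallest unadjusted p, Insig1, ranged from 174.6 to 712.8 CPM in Control (median 487.5), from 292.7 to 555.9 in Red (median 414.3) and from 327.1 to 826.6 in Tangerine (median 499.1). Its value was 0.32 ± 0.18 (SE), with an interval of -0.04 to 0.67 and an unadjusted p of 0.0787 (adjusted p = 0.936). Idi1 gave -0.27 ± 0.16 (SE; unadjusted p = 0.104, adjusted p = 0.956) and Hmgcs1 -0.27 ± 0.19 (SE; unadjusted p = 0.17, adjusted p = 0.988). For Dhcr7 the interval was -0.14 to 0.18 and for Sc5d -0.17 to 0.19.

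Between the tomato diets, 22 of 26 genes had higher mean levels on tangerine than on red tomato and 1 passed the test. The median log2 fold change was 0.23, beside -0.005 over all genes, of which 48.5% were higher. The contrast shares its Red livers with Red against Control, so the 2 sets of values are not independent. At an adjusted p of 0.05 edgeR called 1 of 26, against 1.71% of all genes. DESeq2 called 4 (Nsdhl, Dhcr7, Stard4 and Tmem97), against 2.89% of the 13522 genes to which it gave an adjusted p, and limma-voom 7, against 5.3% of all genes. At an unadjusted p of 0.05, 14 of 26 were higher, where 6.6% of all genes were, and 1, Insig2, was lower.

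The gene that rose was Tmem97, an endoplasmic reticulum and lysosome membrane protein known for its part in intracellular cholesterol transport. It spans positions 78541817 to 78550777 of chromosome 11 on the minus strand. Its level ranged from 46.01 to 77.46 CPM in Control (median 62.19), from 46.5 to 58.38 in Red (median 53.93) and from 58.07 to 86.9 in Tangerine (median 65.72). The Tangerine and Red ranges barely met: 11 of 12 Tangerine livers were above every Red liver, and 11 of 12 Red livers below every Tangerine liver. Tangerine against Red gave 0.29 ± 0.065 (SE), a fold of 1.22, with an adjusted p of 0.0173. With the counts of its pseudogene added the adjusted p was 0.0144, and without Control 137, Red 186 and Tangerine 216 it was 0.0267. With a clock score as covariate the value was 0.16 (adjusted p = 0.399), and with the mouse number as covariate 0.26 (adjusted p = 0.0546). Both covariates differed between these diets, so these fits cannot tell them apart from diet. Red against Control gave -0.22 ± 0.065 (SE; unadjusted p = 0.00165, adjusted p = 0.118), and Tangerine against Control 0.07 ± 0.065 (SE; unadjusted p = 0.288).

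Several other members stood just outside the threshold in this contrast. Dhcr7 was 0.28 higher (adjusted p = 0.054), and 7 of 12 Tangerine livers were above every Red liver. Nsdhl was 0.28 higher (adjusted p = 0.059), with 8 Tangerine livers above every Red liver. Stard4, a carrier that moves sterol between membranes, had medians of 223.9 CPM in Control, 169.8 in Red and 213.2 in Tangerine, a value of 0.38 (adjusted p = 0.0832), and all 12 Tangerine livers above the Red median. Msmo1 was 0.39 higher (adjusted p = 0.0984). Without Control 137, a library of neither diet compared, 4 of 26 were called: Tmem97, Nsdhl (adjusted p = 0.0491), Dhcr7 (adjusted p = 0.0475) and Stard4 (adjusted p = 0.0464). Aacs, which returns the ketone body acetoacetate to the pathway, had the widest spread of all members within diets (0.63 on the log2 scale) and a value of 0.22 with an interval of -0.26 to 0.71.

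Of the 4 regulators, 2 had a Red against Control value below 0 and 2 above. Srebf2 had medians of 62.6 CPM in Control, 63.86 in Red and 61.84 in Tangerine, and its spread of 0.115 was the smallest of the members, where the median over all tested genes was 0.243. Scap, the escort of SREBP2, had medians of 161.9, 155.3 and 165.2 CPM. The Red against Control intervals were -0.06 to 0.14 for Srebf2 and -0.22 to 0.08 for Scap. Insig1 differed between Red and Control by -0.05 (interval -0.41 to 0.30) and between Tangerine and Red by 0.37 (unadjusted p = 0.042, adjusted p = 0.308). Insig2, the other retention protein, had its highest median on the red diet. It ranged from 139.2 to 432.1 CPM in Control (median 231.8), from 246.4 to 410.7 in Red (median 357.8) and from 105.3 to 337.4 in Tangerine (median 264.3). All 12 Red livers were above the Control median, and 8 of them were above every Tangerine liver. Red against Control gave 0.34 ± 0.20 (SE), with an interval of -0.07 to 0.75 that included 0 (edgeR unadjusted p = 0.102, adjusted p = 0.481). That value changed sign with a clock score as covariate. Tangerine against Red gave -0.58 ± 0.20 (SE; unadjusted p = 0.00678, adjusted p = 0.138).

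Insig2 followed the clock gene Arntl from liver to liver. Arntl encodes BMAL1, the partner of CLOCK, and Dbp is an output of that pair which peaks at the opposite time of day. With each gene centred within diet, the Pearson correlation of log2 CPM between Insig2 and Arntl over 36 libraries was 0.92 (p = 1e-05, the smallest that 100000 permutations within diets give; adjusted p = 0.000119 over 403 gene pairs). Spearman's rho was 0.905 (adjusted p = 0.000139), and r was 0.907 without the 2 libraries farthest from the Insig2 median. Within the diets r was 0.911 in Control, 0.911 in Red and 0.948 in Tangerine. With Dbp the r of Insig2 was -0.71 (adjusted p = 0.000119; rho -0.784, adjusted p = 0.000139) and -0.717 without the 2 farthest libraries. Arntl ranged from 2.155 to 23.01 CPM in Control (median 4.673), from 6.161 to 29.32 in Red (median 17.66) and from 1.173 to 12.86 in Tangerine (median 5.784). It fell in Tangerine against Red (-1.46 ± 0.40, SE; adjusted p = 0.0464), while Dbp rose (1.84 ± 0.46, SE; adjusted p = 0.0289). In a fit with a clock score as covariate, the first principal component of 10 clock genes, Insig2 in Tangerine against Red was 0.10 (adjusted p = 0.785). The mean clock score was 0.832 in Control, -2.45 in Red and 1.62 in Tangerine, so that fit cannot tell diet and clock score apart. Time of killing is not given in the labels, and whether it set these differences was not tested.

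**Figure D4:**
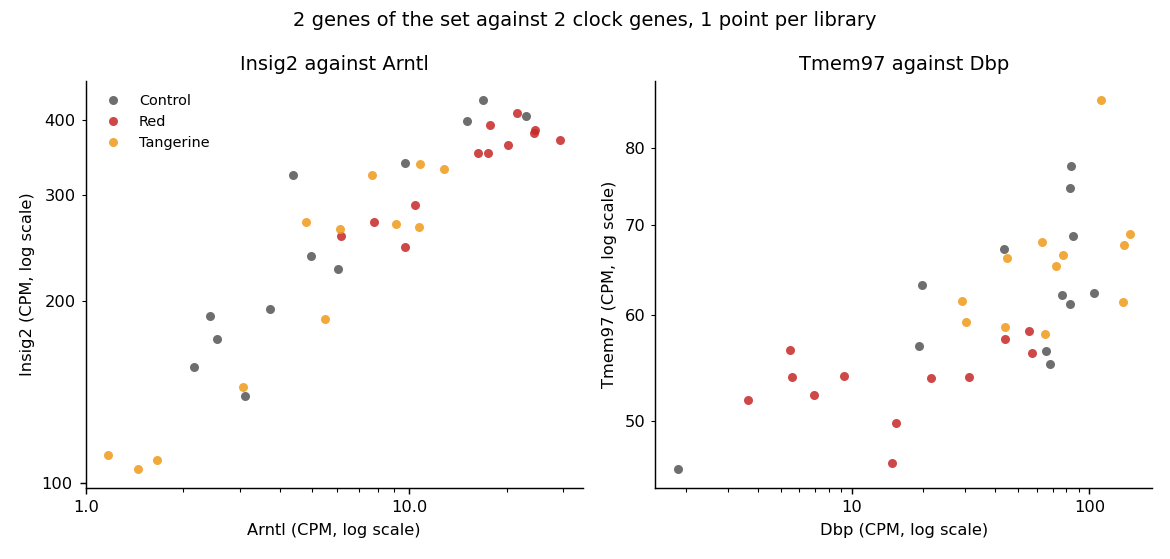
Insig2 against Arntl (left) and Tmem97 against Dbp (right), in CPM on log axes, 1 point per library, coloured by diet. Insig2 rises with Arntl within each diet (r of 0.911, 0.911 and 0.948), and the Tmem97 and Dbp points scatter more widely (r of 0.55 with diets centred).

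Tmem97 also moved with Dbp, with an r of 0.55 (adjusted p = 0.00403), a rho of 0.456 (adjusted p = 0.0169) and an r of 0.38 without the 2 libraries farthest from the Tmem97 median. Within diets this r was 0.693, 0.391 and 0.497 in Control, Red and Tangerine. Stard4 was negatively correlated with Arntl (r = -0.46, adjusted p = 0.0171; rho = -0.48, adjusted p = 0.0151; r = -0.622 without the 2 farthest libraries). For the 26 members, 1 was positively and 1 negatively correlated with Dbp at an adjusted p of 0.05, and the same counts held for Arntl, by Pearson's r. By Spearman's rho it was 1 positively and 3 negatively with Dbp, and 4 positively and 1 negatively with Arntl. The median r over members was -0.04 with Dbp and 0.12 with Arntl.

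Within diets, many members varied together. Of 325 pairs of members, 147 were positively and 6 negatively correlated at an adjusted p of 0.05 by Pearson's r, with a median r of 0.37. By Spearman's rho the numbers were 133 and 3. The share among pairs of other genes was not computed, so these counts have no background beside them. The closest pair was Idi1 and Msmo1, with an r of 0.87 over all libraries (adjusted p = 0.000119; rho 0.843, adjusted p = 0.000139; 0.824 without the 2 farthest libraries), although within diets it was 0.95 in Control, 0.928 in Red and 0.411 in Tangerine. Sqle and Cyp51 gave an r of 0.87 (adjusted p = 0.000119; rho 0.857, adjusted p = 0.000139; 0.872 without 2 libraries) and held between 0.824 and 0.94 within diets. Cyp51 and Msmo1 were at 0.944 in Control and 0.952 in Red but at -0.043 in Tangerine, a difference that was not tested. Against the mean of the other members, described here with no test, Cyp51 had an r of 0.861, Acat2 0.858, Lss 0.853 and Sqle 0.85. At the other end Insig2 had 0.19, Tmem97 0.018, Ggps1 0.008 and Ebp -0.132. Each r was also placed among those of the non-member genes with the same mean. Cyp51, Acat2, Lss and Sqle stood at percentile 100 after rounding. Insig2 stood at percentile 72.8, Tmem97 at 50.8, Ggps1 at 49.6 and Ebp at 33.5. Tmem97, the gene called between the tomato diets, was thus among the 4 members that followed the others least.

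**Figure D5:**
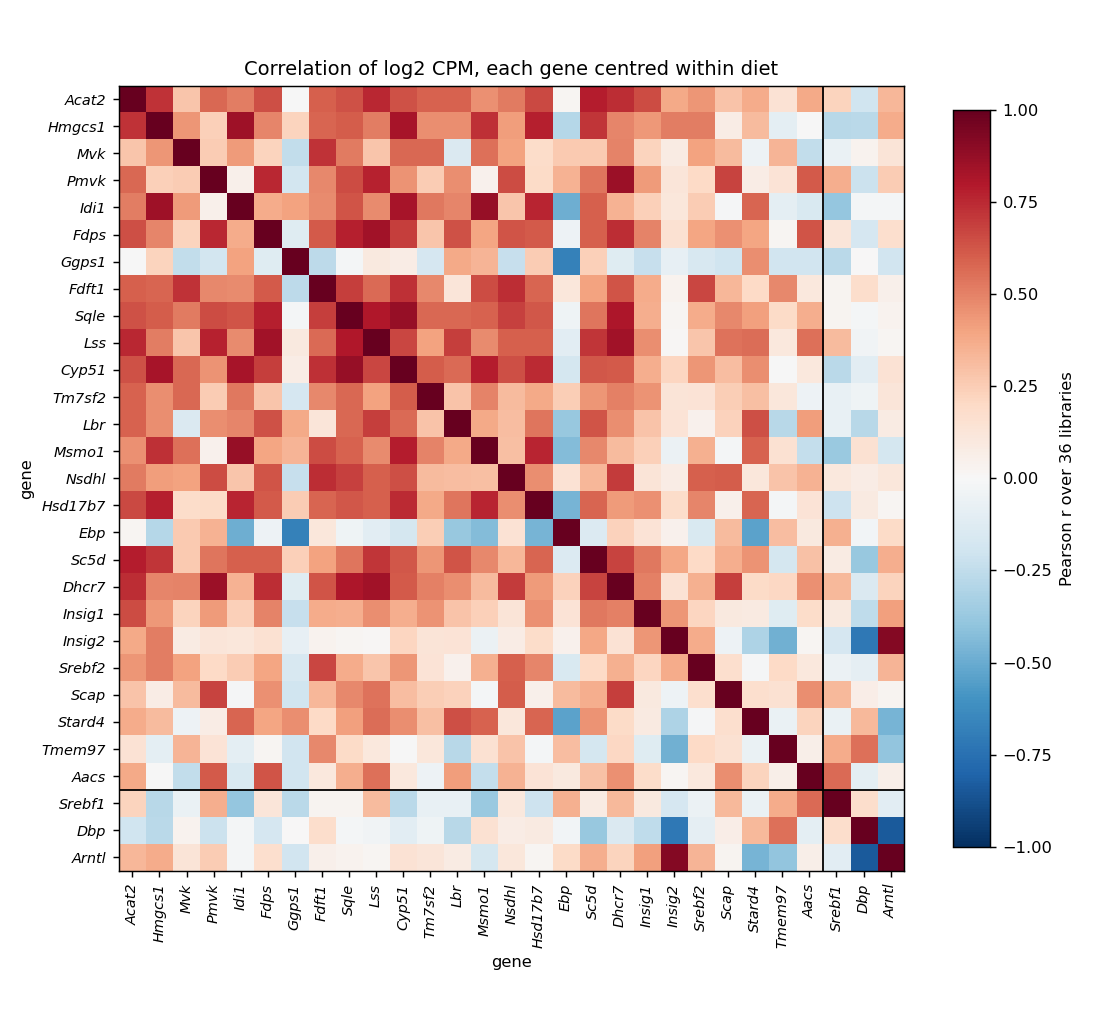
Pearson correlations of log2 CPM over 36 libraries, each gene centred within diet, for the 26 tested members in pathway order and, past the black lines, Srebf1, Dbp and Arntl. Red marks positive and blue negative r. Most enzymes form a red block, while Ebp, Ggps1, Tmem97 and Insig2 stand out of it, and Insig2 is dark red with Arntl (0.92).

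Ebp had 5 of the 6 negative pairs, the strongest with Ggps1 (r = -0.68, adjusted p = 0.000295; rho = -0.597, adjusted p = 0.00224; -0.652 without the 2 farthest libraries), and the sixth was Insig2 with Tmem97 (r = -0.48, adjusted p = 0.0232; rho = -0.422, adjusted p = 0.0501; -0.564 without 2). The transcript of Srebf2 was positively correlated with 7 of the 25 other members, most strongly with Fdft1 (r = 0.67, adjusted p = 0.000295; rho = 0.643, adjusted p = 0.000393; 0.578 without 2). Srebf1, which encodes the related factor of fatty acid synthesis, was correlated with 1 member, Aacs (r = 0.57, adjusted p = 0.00215; rho = 0.556, adjusted p = 0.0033; 0.487 without 2). Insig1 and Insig2 gave an r of 0.44 (adjusted p = 0.0426; rho 0.413, adjusted p = 0.0601; 0.342 without 2), with 0.715 in Control, -0.2 in Red and 0.292 in Tangerine. Whether depth or dissection of the tissue pieces contributed to these correlations was not tested.

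The non-member genes whose levels were most like the mean of the members included Rdh11, a retinol dehydrogenase (r = 0.789 over 36 libraries), Idh1, the cytosolic isocitrate dehydrogenase (0.756), Nfe2, a transcription factor of blood cell development (0.745), Acsl3, an acyl-CoA synthetase (0.742), and Uba2, a subunit of the SUMO-activating enzyme (0.731). The 10 most alike also held 3 processed pseudogenes of members, Gm6781 of Fdft1 (0.835), Gm3571 of Fdps (0.754) and Gm13502 of Idi1 (0.718), which were singled out after their values were seen.

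Around the pathway, lists of neighbouring functions were counted the same way. Of 10 tested genes of the isoprenoid branches (dolichol, ubiquinone and prenyl transfer), edgeR called 0 in each contrast, DESeq2 1 (Rabggtb, in Tangerine against Red) and limma-voom 2 (Nus1 in Red against Control and Rabggtb in Tangerine against Red). Of these 10, 2 had an unadjusted p under 0.05 in Tangerine against Red, 1 in Red against Control and 0 in Tangerine against Control, where 15.1%, 13.3% and 5.47% of all genes had one in either direction. Of 7 tested genes of SREBP cleavage and sterol-dependent degradation, edgeR, DESeq2 and limma-voom called 0 in each contrast, with 1 at an unadjusted p under 0.05, in Red against Control. The medians of these lists in Tangerine against Red were 0.016 and 0.019.

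Of 13 tested genes of sterol clearance, edgeR called 2 higher in Tangerine than in Red, where 1.71% of all genes were called. They were Abcg5 (0.35 ± 0.079, SE; adjusted p = 0.0173) and Abcg8 (0.34 ± 0.087, SE; adjusted p = 0.03), which pair to form the transporter that exports sterols into bile. Abcg5 averaged 86.03 CPM in Tangerine and 67.48 in Red, and Abcg8 133 and 104.9. DESeq2 and limma-voom each called 3 genes of that list, Abcb11, the bile salt export pump, besides these, where they called 2.89% of 13522 and 5.3% of 14068 genes. The median of that list was -0.014. Of 16 genes of fatty acid synthesis, edgeR called 1 higher in Tangerine than in Red, the one called by DESeq2 and by limma-voom. It was Thrsp (1.05 ± 0.26, SE; edgeR adjusted p = 0.0287), a lipogenic regulator at a mean of 1227 CPM in Tangerine and 593.7 in Red. The list's median was 0.236. In Red against Control, DESeq2 called Abcg5 and Thrsp, where it called 1.29% of 12704 genes. In that contrast limma-voom called Abcg5, Abcg8 and Thrsp, where it called 10.7% of 14068 genes, and edgeR called none of them. In Tangerine against Control no method called any of them. Srebf1 had medians of 425.8 CPM in Control, 340.1 in Red and 423.2 in Tangerine, and was not called (Tangerine against Red 0.35, unadjusted p = 0.0145, adjusted p = 0.197).

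Of 10 clock genes, edgeR called 7 in Tangerine against Red, where it called 1.71% of all genes: Nr1d2, Dbp and Tef rose, and Arntl, Npas2, Clock and Cry1 fell. DESeq2 and limma-voom each called 8, these and Per2. The fasting list, genes of the liver's response to fasting, had 0 of 10 called in Tangerine against Red by edgeR and by DESeq2. By limma-voom 1 was called (G6pc), and 3 had an unadjusted edgeR p under 0.05. In Red against Control edgeR called 0 of the clock, sterol clearance, fatty acid and fasting genes, while 9 of 10, 3 of 13, 6 of 16 and 3 of 10 had an unadjusted p under 0.05 in either direction, against 13.3% of all genes. DESeq2 called 1, 1, 1 and 0 of the same lists in that contrast and limma-voom 8, 2, 3 and 1. The fatty acid list had 14 of 16 genes lower and 2 higher in Red against Control, where 51.5% of all genes were lower. Its median was -0.416, beside -0.248 for the cholesterol members, and its 6 genes with an unadjusted p under 0.05 were all lower. In Tangerine against Control, edgeR, DESeq2 and limma-voom called 0 genes of these 4 lists, with 0, 1, 1 and 2 at an unadjusted p under 0.05, against 5.47% of all genes. The fatty acid list had 14 of 16 genes lower in that contrast too, where 55.4% of all genes were lower, with a list median of -0.183.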

How the data were processed

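Liver RNA was sequenced from 36 mice, 12 per diet, as directional libraries. The authors deposited 1 table of whole-number counts per gene, not normalized, per the labels. FastQC, Trimmomatic, edgeR and build GRCm38.p6 are named in the submitters' processing notes, and the aligner and the counting settings are not given in the sources used here. Of 53715 identifiers, 53620 matched GENCODE M21 without the version suffix. Genes were filtered with filterByExpr (minimum count 10, minimum total 15), scaled by TMM and tested with edgeR 4.0.16 (quasi-likelihood, all 36 libraries in 1 fit), with Benjamini-Hochberg adjustment over all 14068 tested genes at a threshold of 0.05. Log2 CPM used a prior count of 2. Alternatives used DESeq2 1.42.0, limma 3.58.1 and sva 3.50.0. No mouse number occurs in 2 diets, so no pairing applied. Correlations used log2 CPM centred within diet, with 100000 permutations within diets, two-sided. Shared sequence was counted as 50-base words of annotated transcripts. Read counts without molecular identifiers are not independent molecules. The fitting code was tested on simulated data. All members are named, from the other lists those past the threshold plus Srebf1, Dbp and Arntl, and up to 5 of the 10 most alike non-members. The members past the threshold, or otherwise the 3 with the smallest p in a contrast, are given in full. The members and lists were chosen with earlier results of these data known, and motifs were chosen after the data were seen.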

Additional observations from a re-analysis of the deposited data

How the results depend on the processing

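In Red against Control edgeR called 0 members, beside 0.149% of all tested genes. DESeq2's test called 2 (beside 1.29% of tested genes) and limma-voom with sample weights 14 (10.7%). A fit with 5 of 9 estimated surrogate variables called 7 (2.57%). In that contrast 1 was called without Red 186 and Tangerine 216 (Acat2, beside 0.377% of tested genes), 1 with pseudogene counts added (Fdps, 0.149%), and 2 without Control 137, Red 186 and Tangerine 216 (Acat2 and Idi1, 0.533%), the last 2 settings having been chosen after seeing the data. Leaving out each of the 36 libraries gave 0 to 1, with 1 without Control 189 (Idi1, beside 0.9% of tested genes) and without Red 186 (Acat2, 0.383%). In Tangerine against Red 1 was called, beside 1.71% of all tested genes. The number was 2 under a stricter filter (mean log2 CPM from 1 up), beside 2.33% of tested genes, 4 by DESeq2's test (2.89%) and 7 by limma-voom (5.3%). It was 5 with surrogate variables (5.81%), 4 when only the 2 groups were fitted (2.42%) and 2 with pseudogene counts added (1.69%). It was 0 with either the clock score or mouse number in the model. With the clock score 0 of all 14068 genes were called in that contrast by edgeR, and with mouse number 32 (0.227%), against 241 with neither. The mean clock score was -2.45 in Red and 1.62 in Tangerine, and mouse numbers reached 204 in Red and 242 in Tangerine. Both covariates thus went in part with diet, and these fits cannot tell them apart from it. Leaving out each library gave 1 to 4, with 4 without Control 137, 3 without Tangerine 225 and 2 without each of Control 122, Control 188, Red 170, Red 186, Red 204 and Tangerine 226. Between 0.631% (without Tangerine 216) and 2.13% (without Control 137) of tested genes were called in the same fits. Tmem97 was among the calls in all 36 of these fits, with adjusted p between 0.00999 and 0.0413. Tangerine against Control had 0 members called in the 36 fits that left out 1 library and in the 12 other settings. With the clock score as covariate Insig2 turned to 0.10 in Tangerine against Red from -0.58. Over the 26 members, 3 contrasts and 48 settings, 98 of 3744 values changed sign, and of the 31 gene and contrast pairs with an unadjusted p under 0.05 as reported, 1 did so, that of Insig2 with the clock score. The causes of these changes were not tested. Member medians stayed between -0.29 and -0.22 for Red against Control and between 0.20 and 0.27 for Tangerine against Red. No paired analysis was possible because no mouse number is shared between diets.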
